A study of Mus musculus with 24 samples.

Results

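Gene expression was compared between mouse embryonic stem cells (mESC) whose huntingtin gene carries a knock-in allele of 50 CAG repeats, called Q50, and cells with an allele of 20 repeats, called Q20. The comparison set 2 libraries of Q50 against 2 of Q20, 4 of the 24 RNA sequencing libraries of the study, chosen by their labels. The replicate number of each library was carried as a block. The spread and the replicate effect were estimated over all 12 mESC libraries. Both genotypes belong to an allelic series of mESC lines that are heterozygous for the knock-in allele at Hdh, the older name of Htt, so each also keeps an allele without a knock-in. Both were grown in medium with serum and leukemia inhibitory factor on gelatin, over a feeder layer of irradiated CF-1 mouse embryonic fibroblasts, and no agent separated the groups. The same table holds 2 libraries each of wild type (WT), Htt knockout (KO), Q92 and Q111 mESC, and a second table holds the same 6 genotypes as neural progenitor cells (NPC). The third allele is called Q92 as in the sample titles, although the growth protocol gives its length as 89. The labels name no second line for any allele, so repeat length and line cannot be told apart. The labels call the libraries biological samples without saying that they came from separate cultures, so the tests measure the spread between these libraries.

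Htt encodes huntingtin, a large scaffold protein that binds partners in vesicle transport, transcription and RNA processing. A run of CAG codons near the start of its coding sequence is read as glutamines, and long runs cause Huntington disease in people. Mouse embryonic stem cells in serum with leukemia inhibitory factor move between a naive state, a state closer to the epiblast about to differentiate, and a smaller share of cells that start the program of the primitive endoderm, the lineage of the yolk sac.

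The tract that the knock-in alleles lengthen lies in exon 1 of Htt, at chr5:34761907-34762008 on the + strand of GRCm38, here from the start codon in the reference transcript of GENCODE M21. It is shown because repeat length is the labelled difference between the groups, and the capitals mark the glutamine run, at chr5:34761958-34761978. The reference run has 7 codons, 6 of them CAG and 1 CAA, against 20 and 50 CAG repeats in the knock-in alleles.
Htt: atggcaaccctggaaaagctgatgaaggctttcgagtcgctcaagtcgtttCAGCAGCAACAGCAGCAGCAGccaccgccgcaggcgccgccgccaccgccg

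The 4 libraries held between 66414316 and 77717251 recovered reads, within the range of 58546211 to 81502284 of all 12 mESC libraries. Across the 12 libraries, component 1 of a principal component analysis took 31% of the variance and set every replicate 1 apart from every replicate 2. Differences between replicates 1 and 2 correlated between all 15 pairs of genotypes, with Pearson r across genes from 0.25 to 0.55, and at 0.46 between Q20 and Q50. Pou5f1, which encodes the pluripotency factor Oct4, had 326 and 433 CPM (read counts scaled to a common library total) in Q20 and 374 and 562 in Q50, and Nanog 441 and 235 against 241 and 617. Markers of the feeder fibroblasts were present in all 4 libraries: 17 markers summed to 380 and 279 CPM in Q20 and 201.4 and 186 in Q50, with none at 0. In 1 library labelled KO, replicate 1, Htt stood at 139 CPM, against 124 and 113 in WT and 68.5 in KO replicate 2, so a fit without both KO libraries was also made.

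Htt itself did not separate the 2 genotypes. It had 146 and 122 CPM in the Q20 libraries and 152 and 111 in the Q50 libraries, and the groups overlapped. Its log2 change, always Q50 minus Q20 of log2(CPM + 1), was -0.03 ± 0.21 (SE, n = 2 per group; limma adjusted p = 0.963). Per gene, reads of the knock-in and the other allele were added together, and the gene, at chr5:34761740-34912534, overlaps another annotated gene on the same strand. Around Htt, 57 genes within 3 Mb were tested. None passed the test, 7 were higher and 5 lower at an unadjusted p under 0.05, and their median log2 change was 0.03. Of all tested genes 9.02% were higher and 8.37% lower at that threshold.

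Single genes separated Q50 from Q20 in numbers that depended on the fit, and about as many of the calls lay on chromosomes 1, 11 and 14 as on all others. At a Benjamini-Hochberg adjusted p under 0.05 in limma, 137 of 13916 tested genes were called (0.984%), 85 higher in Q50 (0.611%) and 52 lower (0.374%). Their median change was 1.11 in size on the log2 scale and the smallest was 0.58. At an unadjusted p under 0.05, 2420 genes passed (17.4%), 1255 of them higher (9.02%) and 1165 lower (8.37%). Across the tested genes, the change in the replicate 1 pair and that in the replicate 2 pair correlated at a Pearson r of 0.27.

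The number of calls rested on each of the 4 libraries, on the other mESC libraries in the fit and on the replicate block. Without Q50 replicate 1, 10 genes were called, without Q50 replicate 2, 3, without Q20 replicate 1, 3, and without Q20 replicate 2, 6, and only Mmgt1 was called in all of these fits. Without the block 1 gene was called, and with the block but only the 4 libraries of Q50 and Q20 also 1. A fit by edgeR on the recovered reads with the block called 78, of which 77 were among the 137. DESeq2 on the same reads and with the block called 1016.

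Genes of chromosomes 1 and 14 were higher and genes of chromosome 11 lower in Q50, as whole chromosomes. Over the 593 genes of chromosome 1 that averaged 5 CPM or more, the median log2 change was 0.40, with 0.37 in the replicate 1 pair and 0.44 in the replicate 2 pair, and 86.7% of these genes were higher in Q50. Over the 375 such genes of chromosome 14 it was 0.34, with 0.30 and 0.42 in the pairs. Over the 860 of chromosome 11 it was -0.34, with -0.34 and -0.32, and 12.9% were higher. The medians of 17 other chromosomes lay between -0.03 and 0.06, and the 5 genes of the Y chromosome had a median of -1.001.

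**Figure D1:**
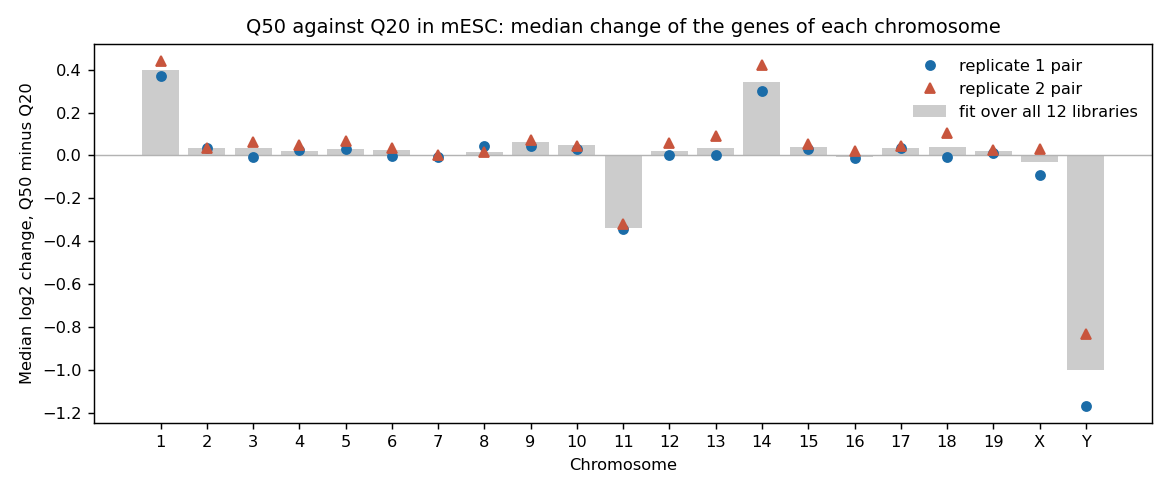
Median log2 change, Q50 minus Q20 in mESC, of the genes of each chromosome that averaged 5 CPM or more (y axis) by chromosome (x axis); bars give the fit over 12 libraries, circles the replicate 1 pair and triangles the replicate 2 pair. Chromosomes 1 (0.40), 14 (0.34), 11 (-0.34) and Y (-1.001, from 5 genes) stand away from 0, while the 17 others lie between -0.03 and 0.06.

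The shifts can be read in each library as the median deviation of a chromosome's genes from the mean of the 6 genotypes. For chromosome 1 it was -0.21 and -0.22 in the Q20 libraries and 0.19 and 0.21 in the Q50 libraries, while the KO libraries stood highest, at 0.37 and 0.33. The Q92 libraries, at -0.15 and -0.15, and those of Q111, at -0.20 and -0.16, stood near Q20, and WT was at 0.04 and 0.01. For chromosome 11 it was 0.26 and 0.23 in Q20 and -0.08 and -0.10 in Q50, and the Q111 libraries, at 0.26 and 0.29, stood with Q20. For chromosome 14 it was -0.12 and -0.20 in Q20 and 0.19 and 0.24 in Q50, with the 8 other libraries between -0.08 and 0.06. On each of these chromosomes the gap between Q50 and Q20 was larger than the gap between the 2 libraries of either genotype. With 2 libraries a group, no exact permutation test could reach 0.05, so no test is given.

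**Figure D2:**
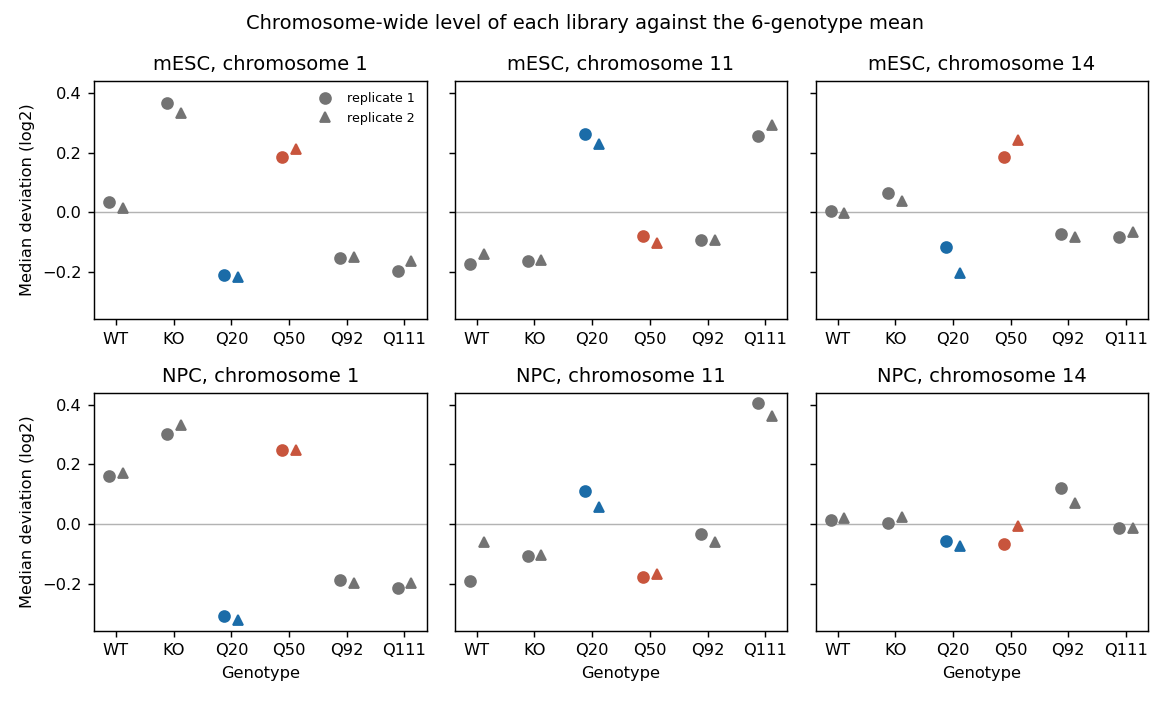
Median deviation (log2, y axis) of the genes of chromosomes 1, 11 and 14 in each library from the mean of the 6 genotypes, by genotype (x axis), for mESC in the upper row and NPC in the lower row; circles are replicate 1, triangles replicate 2, blue Q20 and red Q50. In mESC chromosome 14 the Q50 libraries (0.19 and 0.24) stand above and the Q20 libraries (-0.12 and -0.20) below the others, a separation that the NPC libraries do not show.

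The shift of chromosomes 1 and 11 ran along their whole length, and that of chromosome 14 was steeper toward its end. In 14 consecutive segments of chromosome 1, each of at least 40 genes, the median ran from 0.29 to 0.52, and in 21 segments of chromosome 11 from -0.45 to -0.19. On chromosome 14 the first 7 segments lay between 0.22 and 0.34, and the last 2 at 0.65 and 0.83, a split made after their values were seen. The last segment, chr14:76414961-122984035, held 21 of the 27 calls of the chromosome.

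**Figure D3:**
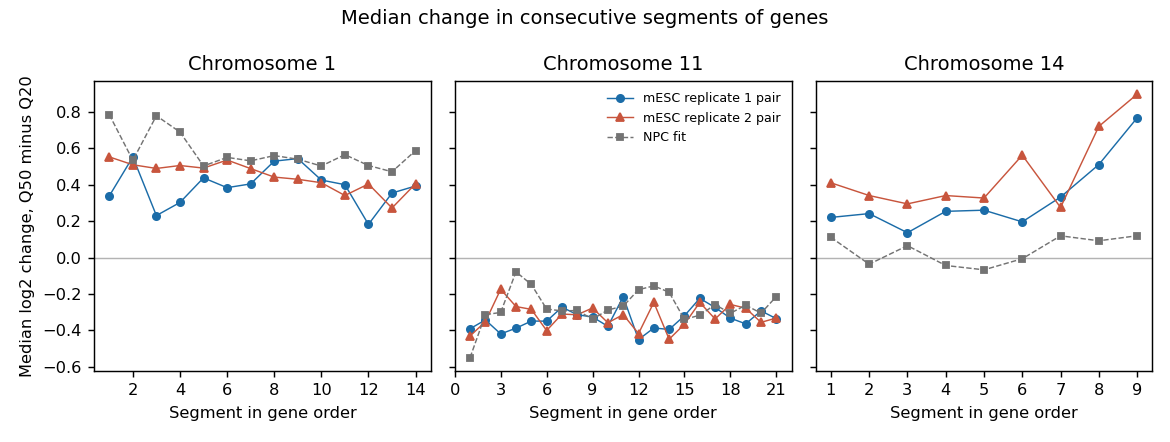
Median log2 change, Q50 minus Q20 (y axis), in consecutive segments of at least 40 genes along chromosomes 1, 11 and 14 (x axis, segment in gene order); circles are the mESC replicate 1 pair, triangles the replicate 2 pair and squares the NPC fit. Both mESC pairs stay above 0 along chromosome 1 and below 0 along chromosome 11, and both climb over the last 2 segments of chromosome 14, where NPC stays at 0.09 and 0.12.

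Chromosomes 1, 11 and 14 held 17.6% of the tested genes and 68 of the 137 calls (49.6%). On them 2.78% of the tested genes were called, against 0.602% on all other chromosomes. On chromosome 1, 24 genes rose and 1 fell. Among those that rose were Parp1, which encodes an enzyme that marks DNA breaks (756 and 691 CPM in Q20, 1238 and 1184 in Q50), and Cenpf, a kinetochore protein gene (571 and 328 in Q20, 907 and 549 in Q50). On chromosome 14 all 27 called genes rose, among them Dis3, an RNA exosome nuclease gene (175 and 242 in Q20, 273 and 479 in Q50), and Ipo5, a nuclear import receptor gene (1431 and 1046 in Q20, 2298 and 2137 in Q50). On chromosome 11, 15 of 16 called genes fell, among them Ppia, the cyclophilin A gene (2182 and 2086 in Q20, 1269 and 1314 in Q50). Cobl, an actin nucleator gene, was the 1 called gene of chromosome 11 that rose. After the median deviation of each chromosome was subtracted from each library, an alternative added after the data were seen, 23 genes were called, 8 higher and 15 lower, and 21 of them were among the 137. DNA copy number of these chromosomes was not tested.

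The largest rises took in transcription factors, a signalling ligand and membrane proteins. Hist1h2ae, an H2A histone gene at chr13:23570517-23571220, had a value of 0 in each Q20 library, against 245 and 84.8 CPM in Q50. Against a floor of 3 reads per library, 0.0445 and 0.0392 CPM, the Q50 mean was at least 3942-fold higher. The 8 libraries of the other genotypes ran from 47.7 to 411 CPM, so Q20 was the genotype that stood apart. Of the 75-base windows of its transcript 34.4% also occur in other genes, so its count is uncertain.

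Nkx6-3, which encodes a homeodomain factor, had 0.193 and 0.235 CPM in Q20 and 3.07 and 7.03 in Q50. Inhbb, the gene of the activin B subunit, a ligand of the TGF-beta family, had 7.12 and 18.5 in Q20 and 27.8 and 114 in Q50, a log2 change of 2.19 ± 0.27 (SE; limma adjusted p = 0.0243). In both genes every Q50 library stood above every Q20 library. The Q50 and Q20 libraries did not overlap in 129 of the 137 called genes and in 32.7% of all tested genes. Ormdl1, a regulator of sphingolipid synthesis, had 14.1 and 8.31 in Q20 and 61.3 and 43.6 in Q50. Cobl had 26.6 and 51.2 in Q20 and 138 and 189 in Q50. Against the mean of WT, KO, Q92 and Q111, Nkx6-3, Ormdl1 and Cobl changed by -1.25, -1.66 and -1.70 in Q20. In Q50 they changed by 0.99, 0.49 and 0.40 on the log2 scale. Inhbb changed by -0.44 in Q20 and by 1.75 in Q50.

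Tssc4, whose protein acts in assembly of a spliceosomal particle, had 5.08 and 6.07 CPM in Q20 and 21.9 and 26.8 in Q50, and the 8 other libraries lay between 20.1 and 40.3. Its log2 change was 1.94 ± 0.22 (SE; limma adjusted p = 0.0211). Mras, a Ras-related GTPase gene, had 4.95 and 27.4 in Q20 and 22.7 and 87.0 in Q50, so the groups overlapped across replicates although both pairs rose. The other largest rises were Kank4 (1.86), Laptm5 (1.86), Kdelr3 (1.83), Gata4 (1.78) and Abcc4 (1.74), given as log2 changes. Abcc4, a transporter gene, lies in the last segment of chromosome 14 and had 87.6 and 90.4 CPM in Q20 and 354 and 254 in Q50.

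Peg10 and Mmgt1 fell most. Peg10, at chr6:4747306-4760517, is a paternally expressed imprinted gene derived from a retrotransposon. It had 248 and 304 CPM in Q20 and 13.4 and 1.29 in Q50, with 70.6 to 200.7 in the 8 other libraries, so Q50 stood below every other genotype. Its log2 change was -5.59 ± 0.78 (SE; limma adjusted p = 0.0356), and ran from -7.21 to -3.96 when each of the 4 libraries was left out in turn. Mmgt1, at chrX:56585512-56598069, encodes a subunit of the membrane protein insertion complex of the endoplasmic reticulum. It had 48.9 and 35.8 CPM in Q20 and 3.75 and 4.11 in Q50, a log2 change of -3.12 ± 0.17 (SE; limma adjusted p = 0.00203). The WT libraries, at 5.49 and 3.95, were as low as Q50, and those of KO, Q92 and Q111 lay between 40.2 and 51.9. Mmgt1 overlaps another gene on the same strand.

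The next falls are given by library for 3 genes. Pramel7, a gene of the early embryo, had 3.75 and 7.79 CPM in Q20 and 0.443 and 0.916 in Q50. Klhl13, an adaptor gene of a ubiquitin ligase on the X chromosome, had 666 and 377 in Q20 and 175 and 105 in Q50. Usp26, a testis deubiquitinase gene, had 130 and 103 in Q20 and 37.0 and 26.3 in Q50. In all 3 genes the groups did not overlap, as in 129 of the 137 called genes. Against the mean of WT, KO, Q92 and Q111, the log2 changes of Q20 in these genes were 1.78, 1.53 and 2.46. Those of Q50 were -0.18, -0.34 and 0.60. The other large falls were 1700013H16Rik (-2.37), Xlr5c (-2.06), Wisp1 (-1.91), Rbmxl1 (-1.66), Ifi35 (-1.65), Xlr3c (-1.64) and Rhox5 (-1.60), given as log2 changes. Windows of the transcripts shared with other genes made up 76.6% for Xlr5c, 59.5% for Xlr3c and 69.2% for Rbmxl1, so these 3 are uncertain. Of the 24 largest changes, 12 genes overlap another gene on either strand, and whether strand was used in counting is not given in the sources used here.

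**Figure D4:**
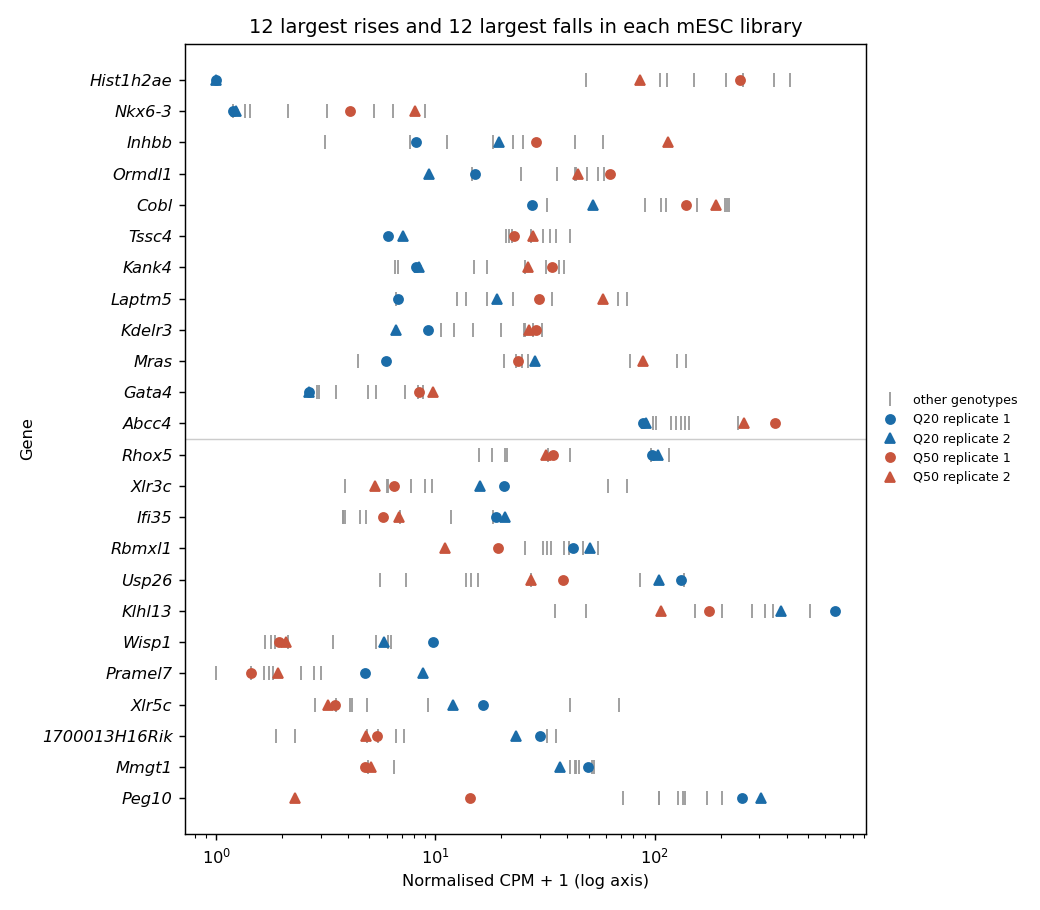
Normalised CPM + 1 (x axis, log scale) of the 12 largest rises, upper part, and 12 largest falls, lower part, by gene (y axis) in each mESC library; blue is Q20, red Q50, circles replicate 1, triangles replicate 2 and grey ticks the 8 libraries of the other genotypes. Peg10 in Q50 and Hist1h2ae in Q20 lie beyond all other libraries, while for Mmgt1 some grey ticks stand with Q50 and others with Q20.

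All 15 called genes of the X chromosome fell, although the median of the chromosome was near 0 (-0.03). They made up 2.89% of its 519 tested genes. They included the Xlr genes Xlr3c, Xlr5a, Xlr5b and Xlr5c, the homeobox gene Rhox5, and Usp26, Nxf3 and Scml2. Of the windows of Xlr5a 80.4% and of Xlr5b 85.3% also occur in other genes, other Xlr5 genes among them. The counts of the Xlr genes are therefore uncertain, and their calls may not be separate. Rhox5 had 96.1 and 103 CPM in Q20 and 33.5 and 30.9 in Q50, and in Q111 115 and 95.1. Nxf3, a gene related to an RNA export receptor, had 19.8 and 14.9 in Q20 and 6.83 and 6.98 in Q50, and 37.3 and 36.8 in Q111. In 9 of the 15 genes the 4 libraries of Q20 and Q111 all stood above the 8 others, a count made after the values were seen. Xlr3c, Xlr5a, Xlr5b and Xlr5c are among the 9. The same pattern held in 27 of the 519 tested X genes. Since the 15 were called with Q20 above Q50, which is part of the pattern, these counts cannot be compared. Pim2, a kinase gene, fell from 35.9 and 51.2 to 18.5 and 18.8 CPM.

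Of the Y chromosome, Ddx3y, an RNA helicase gene, had 53.5 and 56.1 CPM in Q20 and 22.9 and 27.6 in Q50, a log2 change of -1.09 ± 0.16 (SE; limma adjusted p = 0.0382). Uba1y also fell (-1.46), with 42% of its windows shared with other genes. Uty, Kdm5d and Eif2s3y were not called, with log2 changes of -1.001, -0.93 and -0.83. All of these stood lower in both Q50 libraries than in both Q20 libraries. Over the 5 Y genes that averaged 5 CPM or more, 20% were higher in Q50. In WT, Ddx3y had 24.7 and 25.85 CPM and Uba1y 4.24 and 2.83, so low values were not particular to Q50. The median deviation of the Y genes was -0.805 and -0.89 in WT, -0.55 and -0.58 in Q50 and 1.04 and 1.06 in Q92.

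Primitive endoderm genes formed the list with the most calls. Of 17 members tested, 6 rose and none fell, and 12 were higher at an unadjusted p under 0.05. Over all tested genes 9.02% were higher and 8.37% lower at that threshold, the shares to set beside each list below. The median log2 change of the list was 0.97, against 0.00 over all tested genes, with 1.04 and 0.92 in the 2 pairs, and 16 of 17 members were higher. Gata4, a master factor of this lineage, rose from 1.65 and 1.65 CPM in Q20 to 7.43 and 8.76 in Q50, and Sox7, a Sox factor of the same lineage, from 0.222 and 1.19 to 1.83 and 3.91. The basement membrane genes stood higher in level. Lama1, a laminin chain gene, rose from 73.7 and 113 to 224 and 247 CPM, Lamc1, a second laminin chain gene, from 245 and 320 to 501 and 604, and Col4a1, a type IV collagen gene, from 140 and 136 to 348 and 284.

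The log2 changes of these genes were 1.78 ± 0.30 for Gata4, 1.35 ± 0.18 for Lama1 and 1.18 ± 0.16 for Col4a1 (SE; limma adjusted p = 0.0461, 0.0335 and 0.0335). Other factors of the lineage were not called. Gata6 had 1.20 and 1.28 CPM in Q20 and 2.97 and 3.64 in Q50, Sox17 0.504 and 0.418 against 1.47 and 1.01, and Dab2, an endocytic adaptor gene, 7.50 and 5.46 against 16.4 and 13.9. In each of these 3 genes the groups did not overlap, as in 32.7% of all tested genes. The summed CPM of the list was 1135 and 1147 in Q20 and 2097 and 1903 in Q50, and 1099 to 2036 in the other genotypes, of which WT had 2036 and 1733. In bulk RNA, fewer cells of a type and less RNA per cell cannot be told apart. Of the members, 5 lie on chromosomes 1, 11 or 14. Gata4 and Sox7 are among these, on chromosome 14, and changed by 1.40 and 0.81 with chromosome-centred values. The 12 members on other chromosomes had a median of 1.03, with 3 called and 7 higher at an unadjusted p under 0.05. With chromosome-centred values the median of the list was 0.81 and none was called.

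Col4a1 and Col4a2 are a pair of neighbours on chromosome 8 transcribed in opposite directions, and both rose. Col4a2 had 48.7 and 40.1 CPM in Q20 and 107 and 87.3 in Q50, a log2 change of 1.11 ± 0.16 (SE; limma adjusted p = 0.0356). Their start sites in RefSeq (GRCm38.p6) are 21 bases apart and their promoter windows, from 250 bases before to 50 after the start, share 78 bases. The windows are chr8:11312777-11313076 on the - strand for Col4a1 and chr8:11312555-11312854 on the + strand for Col4a2, and are printed because the data show both genes rising together. Capitals mark CG, the letters C then G, which read the same on both strands.
Col4a1: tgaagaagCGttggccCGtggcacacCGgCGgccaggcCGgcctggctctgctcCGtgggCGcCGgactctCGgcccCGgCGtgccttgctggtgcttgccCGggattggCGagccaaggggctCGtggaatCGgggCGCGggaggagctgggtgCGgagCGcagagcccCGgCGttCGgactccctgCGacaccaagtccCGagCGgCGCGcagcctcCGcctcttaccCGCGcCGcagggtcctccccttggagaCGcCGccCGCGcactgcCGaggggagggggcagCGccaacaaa
Col4a2: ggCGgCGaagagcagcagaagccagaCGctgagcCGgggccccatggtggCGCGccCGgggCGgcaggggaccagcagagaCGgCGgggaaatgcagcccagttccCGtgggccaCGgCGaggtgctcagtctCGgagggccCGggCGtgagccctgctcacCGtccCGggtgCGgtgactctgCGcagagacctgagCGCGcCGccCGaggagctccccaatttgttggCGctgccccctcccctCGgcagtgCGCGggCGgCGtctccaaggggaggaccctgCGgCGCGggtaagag
The Col4a1 window holds 37 CG and that of Col4a2 33. Of 32851 promoter windows of the same length, 94.6% hold CG, with a median of 7, and 5.58% hold as many as Col4a1 and 8.56% as many as Col4a2.

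Naive pluripotency genes moved in both directions. Of 18 tested, Tfcp2l1 rose and none fell, and 7 were higher and 3 lower at an unadjusted p under 0.05. The median log2 change was 0.29, with 0.11 and 0.51 in the pairs. It was -0.13 without Q50 replicate 2, 0.69 without Q50 replicate 1 and 0.14 without Q20 replicate 1, so its direction rested on 1 library. Tfcp2l1, a factor that holds cells in the naive state, had 61.2 and 136 CPM in Q20 and 156 and 272 in Q50 (1.16 ± 0.16, SE; limma adjusted p = 0.0356), and lies on chromosome 1. With chromosome-centred values its change was 0.75 and was not called. Klf5 (18.01 and 32.6 in Q20, 44.6 and 119 in Q50), Klf4 (19.4 and 50.8, 65.2 and 92.8) and Tbx3 (9.92 and 27.2, 27.4 and 59.0), all factors of the naive network, were higher in both pairs without being called. Dppa3, a maternal factor gene, had 48.3 and 24.1 in Q20 and 14.2 and 15.0 in Q50, and Pecam1, an adhesion gene of the naive state, 200 and 217 against 122 and 99.8, and neither was called.

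**Figure D5:**
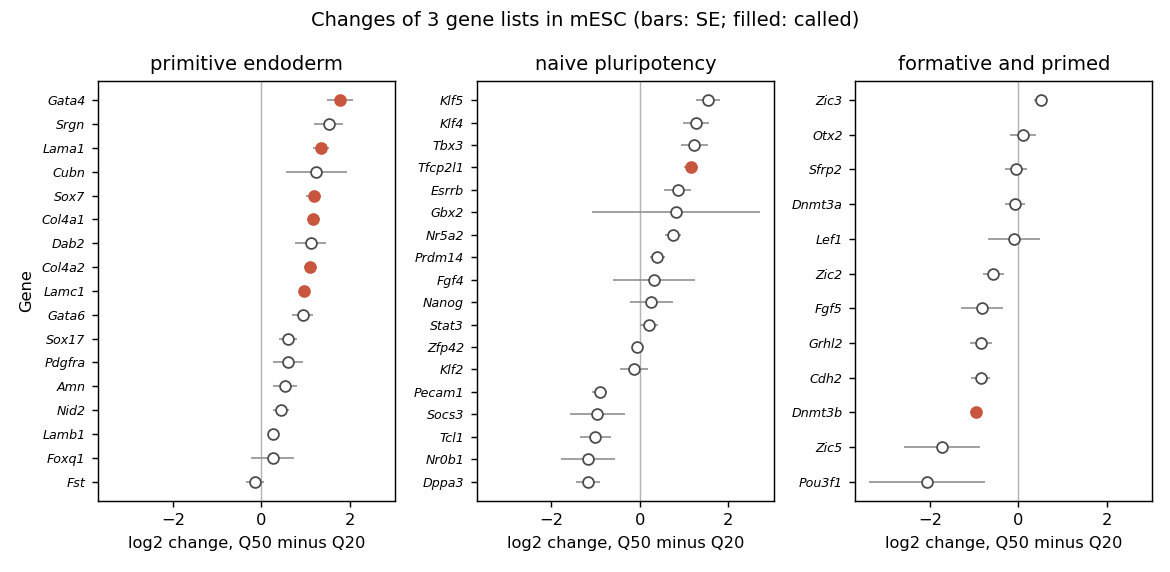
Log2 change, Q50 minus Q20 (x axis), with its SE for each tested member (y axis) of 3 lists, primitive endoderm, naive pluripotency and formative and primed genes; filled points were called by limma. In the first list 16 of 17 members lie above 0 and 6 are called, in the second Tfcp2l1 is called above 0 and in the third Dnmt3b is called below 0.

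Genes of the formative and primed states had a median below 0. Of 12 tested, Dnmt3b fell, 4 were lower and 1 higher at an unadjusted p under 0.05, and the median log2 change was -0.69, or -0.41 without Q50 replicate 1 and -0.39 without Q20 replicate 2. Dnmt3b, a DNA methyltransferase that acts on unmethylated DNA, had 527 and 465 CPM in Q20 and 242 and 268 in Q50, a log2 change of -0.96 ± 0.14 (SE; limma adjusted p = 0.0356). The groups were well apart, and the Q111 libraries, at 466 and 436, stood near Q20. Of its windows, 7.72% also occur in Dnmt3c. Grhl2 (44.4 and 74.0 in Q20, 25.7 and 38.8 in Q50) and Cdh2, the N-cadherin gene (12.9 and 23.0, 6.28 and 13.1), were lower in both pairs without being called. Core pluripotency genes had 0 of 13 called and a median of 0.14, or 0.07 without either Q20 library in turn.

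Among 10 genes of DNA methylation Dnmt3b was the 1 call, and 5 were higher and 1 lower at an unadjusted p under 0.05. Tet2, which encodes an enzyme that oxidises methylcytosine, had 70.4 and 182 CPM in Q20 and 112 and 326 in Q50, and Dnmt1, the maintenance methyltransferase gene, 377 and 471 against 478 and 596, and neither was called. Of the Rhox cluster, homeobox genes of the X chromosome, 11 of 24 listed genes passed the filter on low values. Rhox5 fell, 8 were lower at an unadjusted p under 0.05, and the median was -0.66. Of 20 germline genes known to be silenced by methylation, Mov10l1, a helicase gene of the piRNA pathway, rose (26.2 and 22.3 against 53.03 and 40.8 CPM), and 3 were higher and 2 lower at an unadjusted p under 0.05. Methylation was not measured in these files.

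Imprinted genes had no common direction. Of 30 tested, Peg10 fell, 4 were higher and 7 lower at an unadjusted p under 0.05, and the median was -0.07, or -0.01 without Q20 replicate 1 and -0.12 without Q20 replicate 2. Sgce, the paternally expressed neighbour of Peg10, had 28.9 and 10.9 CPM in Q20 and 18.2 and 8.97 in Q50 and was not called. Snrpn had 300 and 284 in Q20 and 137 and 170 in Q50 and just missed the threshold. Sfmbt2, an imprinted gene outside the list and chosen after its values were seen, fell from 68.4 and 103 to 24.9 and 46.7 CPM (-1.27 ± 0.13, SE; limma adjusted p = 0.0211).

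The title of the series names splicing, and 54 splicing regulators were tested. Mbnl2 and Hnrnpd rose, and 9 were higher and 2 lower at an unadjusted p under 0.05. Of all tested genes 9.02% were higher and 8.37% lower at that threshold. The median log2 change was 0.16 (0.10 without Q20 replicate 2), against 0.00 over all tested genes, and 40 of the 54 regulators were higher. Mbnl2, a muscleblind splicing factor, had 43.9 and 33.9 CPM in Q20 and 156 and 91.2 in Q50 (1.60 ± 0.22, SE; limma adjusted p = 0.0356). It lies in the last segment of chromosome 14, where the median change was 0.83. With values centred on the median of the whole chromosome its change was 1.23 and was not called. Hnrnpd, which encodes an RNA-binding protein of mRNA decay and splicing, had 45.1 and 60.7 in Q20 and 89.2 and 131 in Q50 (1.03 ± 0.11, SE; limma adjusted p = 0.0211), and stayed called with chromosome-centred values. Esrp1, an epithelial splicing factor gene, had 59.1 and 46.4 in Q20 and 29.9 and 21.2 in Q50 and was not called. The values are per gene, so splicing itself was not analysed here.

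Of 21 huntingtin partners none was called, and 2 were higher and 2 lower at an unadjusted p under 0.05, with a median of 0.10, which ran from 0.06 to 0.175 with each library left out. Hip1, a clathrin adaptor gene that binds huntingtin, had 60.5 and 72.7 CPM in Q20 and 37.0 and 34.1 in Q50. Cltc, the clathrin heavy chain gene, had 988 and 931 against 869 and 880, and Rest, a repressor of neuronal genes held by huntingtin, 365 and 432 against 351 and 528.

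Of 3 signalling lists, 1 held a called gene. Among 18 genes that respond to FGF and ERK, Dusp6, an ERK phosphatase gene, rose from 33.7 and 32.8 to 72.2 and 88.0 CPM (1.24 ± 0.21, SE; limma adjusted p = 0.0488). Spry2 (30.5 and 50.4 in Q20, 70.1 and 138 in Q50), Etv4 (35.0 and 116, 81.8 and 167) and Myc (6.57 and 12.5, 16.8 and 35.2) were higher in both pairs without being called, and the median of the list was -0.01. That median ran from -0.12 without Q20 replicate 1 to 0.26 without Q20 replicate 2. None of the 16 Nodal, BMP and Id genes or 13 Wnt targets was called. Outside the lists, and chosen after its values were seen, Nfkb1, an NF-kappa-B subunit gene, rose from 35.0 and 42.7 to 78.3 and 96.5 CPM.

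Of the lists of housekeeping and stress genes, those of ribosomal protein, mitochondrial and histone genes held 1 call each. Of 78 ribosomal protein genes Rpl26 fell, and the median was -0.10. The 7 members on chromosome 11 were all lower, with a median of -0.52, the 3 on chromosome 1 all higher, with a median of 0.41, and the 66 on chromosomes other than 1, 11 and 14 had a median of -0.10. Rpl26, on chromosome 11, had 1293 and 1113 CPM in Q20 and 828 and 734 in Q50, and 35.5% of its windows occur in other genes. Of 82 mitochondrial genes, Cox6b2, a testis form of a cytochrome oxidase subunit, rose from 11.6 and 8.27 to 32.8 and 17.0 CPM, and the median was -0.07. Of 38 canonical histone genes Hist1h2ae was the 1 call and the median was 0.01. Of 25 cholesterol synthesis, 27 glycolysis and hypoxia, 27 stress and 23 p53 target genes none was called, with medians of -0.18, 0.02, -0.14 and 0.08. With each library left out in turn these medians ran from -0.26 to -0.06, from -0.06 to 0.14, from -0.27 to 0.10 and from -0.25 to 0.11, so the last 3 changed sign. The medians of the ribosomal protein, mitochondrial and histone lists ran from -0.17 to -0.04, from -0.14 to 0.00 and from -0.17 to 0.13.

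Clustered protocadherins, adhesion genes used in neuronal identity, had 16 of 44 members past the filter, and none was called. Of these 12 were higher, 7 at an unadjusted p under 0.05, and the median was 0.63, or 0.40 without Q20 replicate 1, 0.28 among members averaging 5 CPM or more and 0.23 with a pseudocount of 5. Pcdhga2 had 1.97 and 1.803 CPM in Q20 and 8.70 and 4.01 in Q50. Members of the cluster share their last exons, so their counts are uncertain.

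Marker lists of other cell types had medians below 0 and no called member. The feeder fibroblast list had 0 of 16 called, 5 lower and 0 higher at an unadjusted p under 0.05, and a median of -0.37. Acta2 had 96.5 and 49.5 CPM in Q20 and 38.9 and 30.6 in Q50, while Col1a1, a defining marker, had 8.76 and 14.2 against 9.72 and 12.8, with a log2 change of -0.00. The neural progenitor list had 0 of 8 called and a median of -0.49, and its summed CPM was 274 and 417 in Q20 and 144 and 267 in Q50. Without Q20 replicate 2 that median was 0.21, and the median of the feeder list was -0.19. The trophoblast list had 0 of 8 called and a median of -0.50, and its sums were 360 and 200 against 194 and 160. Without Q20 replicate 1 that median was -0.32. The 2-cell-like list had 0 of 18 called and a median of -0.39, or -0.18 without Q50 replicate 2, and none of 7 mesoderm and definitive endoderm genes or of 22 matrix genes was called. The part of these cells in the falls described above was not tested.

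Set against the mean of WT, KO, Q92 and Q111 in the same fit, Q50 differed at 5 genes (0.0359%), 3 higher (0.0216%) and 2 lower (0.0144%), and Q20 at 557 (4%), 337 of them higher (2.42%) and 220 lower (1.58%). At an unadjusted p under 0.05 these were 1729 (12.4%) and 3196 (23%). Without the replicate block the counts were 1 and 7. The summed feeder markers also differed between genotypes. They stood at 380 and 279 CPM in Q20 and at 201.4 and 186 in Q50. In WT and KO they stood at 47.75 to 66.3, and in Q92 and Q111 at 212 to 244. Of the sums in Q20, Acta2 made up 96.5 and 49.5 CPM and Tagln 140.6 and 38.55. Acta2 (2.50), Tagln (2.51) and Col1a1 (1.36), all of the feeder list, were called higher by limma in Q20 against the 4 others. Between Q20 and Q50, Col1a1 was near equal. The part of feeder cells in the 557 was not tested. The 5 genes of Q50 were Mmgt1 (-2.47), Otud6b (-0.86) and, on chromosome 14, Stk24 (1.15), Dock9 (1.25) and Ipo5 (0.97), given as log2 changes. These comparisons share their reference libraries, and their difference in count was not tested. For 89 of the 137 genes (65.0%) the mean of the 4 other genotypes lay nearer to Q50 than to Q20, as it did for 59.1% of all tested genes. Rhox5 changed by -0.05 in Q50 and 1.55 in Q20 against the 4 others, Tssc4 by -0.17 and -2.11, and Peg10 by -4.46 and 1.12.

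In NPC, a separate set of libraries of the same genotypes, the same comparison called 2478 of 13206 genes (18.8%), 1063 higher (8.05%) and 1415 lower (10.7%). Of the 137 mESC genes 108 were tested there and 37 called (34.3%), 24 in the same direction and 13 in the opposite. The whole-chromosome medians in NPC were 0.58 for chromosome 1 and -0.27 for chromosome 11, and 0.05 for chromosome 14. On chromosomes 1, 11 and 14 together, 14 of the 37 kept their direction and 5 had the opposite. Col4a1, at 188 and 159 CPM in Q20 and 258 and 373 in Q50, rose in NPC too (0.84; limma adjusted p = 0.0343). Lama1 was lower in NPC Q50 without being called, at 34.2 and 31.2 CPM in Q20 and 15.5 and 21.2 in Q50. Gata4 was near absent in NPC, at 0.112 and 0.107 in Q20 and 0.058 and 0.035 in Q50. Dnmt3b had 210 and 241 in Q20 and 4.39 and 5.19 in Q50, and Nxf3 132 and 136 against 0.097 and 0.082. Ddx3y had 72.3 and 88.7 CPM in NPC Q20 and 0.058 and 0.071 in NPC Q50, against the smaller gap in mESC. Peg10, with 145 and 41.4 in Q20 and 347 and 362 in Q50, and Mmgt1, with 80.3 and 90.1 against 148 and 149, were not called in NPC.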

How the data were processed

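The deposited tables hold normalised CPM values per gene, 1 table per cell type; the authors' column totals differ between libraries, so the values are treated as a normalised signal. Per the submitters' processing notes, CASAVA 1.8, STAR and GRCm38.p6 were used; the counting tool, its use of strand and the gene filter are not given in the sources used here. Dividing each deposited column by its smallest step gave whole numbers of reads for 100% of values, within 0.01 reads; these recovered reads were used for edgeR and DESeq2. Intervals of depth cover counted reads only.

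Genes with at least 1 CPM in at least 2 of 12 mESC libraries were tested (13916, with 3585 left out). limma 3.58.1 in R 4.3.3 was fitted to log2(CPM + 1) with 6 genotype means, the replicate number as a block and a variance trend, which leaves 5 residual degrees of freedom; tests were two-sided with Benjamini-Hochberg adjustment. This scale understates changes of low genes. Replicate numbers were taken to pair mESC libraries because differences between replicates correlated in all 15 pairs of genotypes; in NPC the correlation of Q20 with Q50 was -0.03 and no block was used. edgeR 4.0.16 and DESeq2 1.42.0 were alternatives, with other pseudocounts, filters and scalings and each library left out.

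Positions come from GENCODE M21, which held 99.94% of the mESC genes. Named genes were Htt, the 12 largest rises and 12 largest falls among calls that averaged 5 CPM or more in either group and moved alike in both pairs, and per list up to 4 called members or, with none called, the 2 most abundant; others were named after their values were seen. The comparison and the 28 gene lists were chosen with earlier results of these data known. Simulated data of 13916 genes had changed genes drawn only from those averaging 5 CPM or more, and no shift of whole chromosomes. On them the fit recovered 54% of 100 genes changed by 1.5 and 89% of 100 changed by 3 on the log2 scale. It called 11 unchanged genes, and recovery of lower genes was not tested.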

Additional observations from a re-analysis of the deposited data

Results flagged for a closer look

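Genes called in opposite directions in mESC and NPC by limma were picked out because all Q50 libraries of a cell type moved one way against Q20 and those of the other cell type the opposite way; the difference between cell types was not tested, since the tables were scaled separately. Of 13 genes called in opposite directions, only Cobl, Wisp1 and Cox6b2 are given here. Cobl changed by 2.10 in mESC and by -2.18 in NPC on the log2 scale. In NPC it had 4.36 and 4.13 CPM in Q20 and 0.135 and 0.176 in Q50. Wisp1, a matricellular signalling gene, changed by -1.91 in mESC and by 1.18 in NPC. Cox6b2 changed by 1.19 in mESC and by -1.25 in NPC.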

How the results depend on the processing

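The count of 137 calls moved by more than 1.5 times under these alternatives. It was 1 with no replicate block in limma or in edgeR, 1 with only the 4 libraries of Q50 and Q20 and the block, 78 with edgeR and the replicate block and 1016 with DESeq2 and the block, and ran from 3 to 10 with each library left out. Of alternatives chosen after seeing the data, only the 8 knock-in libraries gave 9 calls, leaving out both KO libraries 91 and chromosome-centred values 23. Against the mean of the 4 other genotypes, the fit with no replicate block called 1 gene in Q50 in place of 5 and 7 in Q20 in place of 557. In NPC the replicate block gave 2504 calls in place of 2478. The cause of these differences was not tested.

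The medians of chromosomes 1, 11 and 14 kept their direction in all fits where they were computed. Chromosome 1 stood at 0.35 with a pseudocount of 5. Chromosome 11 stood at -0.30 with a pseudocount of 5, -0.37 with quantile normalization, -0.36 with edgeR with or without the replicate block and -0.37 with DESeq2, and ran from -0.36 to -0.31 with each library left out. No named gene reversed its direction where it was called. With 2 libraries a group, a gene that was not called cannot be read as equal between genotypes. Medians of lists of low genes depended on the pseudocount: with 5 CPM added the primitive endoderm list stood at 0.46, the clustered protocadherins at 0.23 and the Rhox cluster at -0.19.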
